A study of Mus musculus with 2 samples.

Results

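The regions described here are macroH2A1 peaks far from any annotated gene start. The closest start belongs to a gene with an Ensembl identifier but no gene symbol, although the body of a named gene can be closer. They were taken from the deposited peak list as the rows that give NA as symbol and a shortest distance between peak and gene above 50000 bp. This left 426 of 2560 listed peaks (16.6%), at 332 of the 723 unnamed genes in the list. No region was listed more than once, and together they covered 664 kb.

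E14 is an established line of mouse embryonic stem cells, and the cells were grown untreated in medium with serum and leukemia inhibitory factor. Chromatin was immunoprecipitated with an antibody raised against mouse macroH2A1 in 1 library and with non-specific IgG in the other. The peak list belongs to the macroH2A1 library, and no value of the IgG library itself was used. No read count, enrichment or score is given per peak and the depth is unknown, so there is no precision per peak, no replicate and no test, and each value describes 1 list. Intervals on shares are 95% Wilson intervals that cover counting error only, and neighbouring peaks may not be independent.

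MacroH2A1 is a form of histone H2A with a long extra domain, the macro domain, attached to its histone part. It is known from the inactive X chromosome, from heterochromatin and from silent developmental genes, and it is often found over broad domains outside genes. Gene-poor stretches of mammalian chromosomes, often called gene deserts, hold few coding genes. Those beside developmental regulators can hold distant regulatory elements, while others have no known role. An unnamed Ensembl gene in an annotation of this age can be a small RNA gene, a pseudogene or a coding gene without an assigned symbol, and the list does not say which.

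The unnamed genes to which these peaks were assigned were mostly very short. Their median length was 216 bp (interquartile range 110 to 646 bp), and 163 of the 332 (49.1%, 43.8 to 54.5%) were no longer than 200 bp. At unnamed genes with a peak up to 50 kb away, 148 of 425 (34.8%, 30.4 to 39.5%) were that short, and none of the 407 named genes with a peak beyond 50 kb was. Only 21 of the 332 (6.3%, 4.2 to 9.5%) were longer than 10 kb, against 317 of those 407 named genes (77.9%, 73.6 to 81.6%). The longest was ENSMUSG00000040420 on chromosome 15 (22966218 to 23376169, 410 kb), followed by ENSMUSG00000050730 on chromosome 9 (8997597 to 9239101, 242 kb). The upper quartile of 646 bp is below the narrowest peak width of 1051 bp, so most of the assigned genes were shorter than the peak itself. Only 2 peaks were inside their assigned gene, 1 in ENSMUSG00000028358 on chromosome 4 and 1 in ENSMUSG00000073154 on chromosome 6, which are 174 and 178 kb long.

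The distances, which the choice of peaks sets to more than 50 kb, reached from 50.2 to 983 kb. The median was 142 kb and the interquartile range 87.8 to 248 kb. More than 100 kb separated 293 peaks (68.8%) from the gene, and more than 500 kb separated 31 (7.3%). The 3 peaks just inside the limit lay at 50193, 50336 and 51027 bp, and the 3 just outside it at 49818, 49557 and 49528 bp, so no gap in the distances marks the limit. For none of the 426 peaks was the start of another gene in the list nearer than that of the assigned gene.

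The peak farthest from its gene was on chromosome 15 at 14195850 to 14197050, 983 kb from the 90 bp gene ENSMUSG00000080385. The closest named gene with a peak of its own was Gm9034, a predicted gene, 1690 kb away. On chromosome 9 a peak at 12012850 to 12014650 was 942 kb from ENSMUSG00000077550 and 1841 kb from Cntn5, which encodes a neuronal contactin. On chromosome 14 a peak at 91832450 to 91833950 was 934 kb from ENSMUSG00000077298 and 3887 kb from Tdrd3, the gene of a Tudor domain protein.

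The next of the 10 farthest peaks lay on chromosome 12 (932 kb, with Sdc1, a cell-surface proteoglycan gene, as the closest named gene), chromosome 15 (912 kb, Acot10) and chromosome 8 (873 kb, Odz3, a teneurin gene). A further peak on chromosome 8, 863 kb from ENSMUSG00000077051, was inside Csmd1. The last 3 were on chromosome 18 (844 kb, Dsg4), chromosome 9 (840 kb, Cntn5) and chromosome 3 (815 kb, Amy1, an amylase gene). In 9 of these 10 cases the closest named gene was thus more than 1 Mb from the peak, the exception being the peak inside Csmd1.

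Peaks on either side of the assigned gene were about equally common. Upstream peaks numbered 209 (49.1%, 44.3 to 53.8%) and downstream peaks 215 (50.5%, 45.7 to 55.2%). Among named genes with a peak beyond 50 kb, 253 of 488 peaks were upstream (51.8%, 47.4 to 56.2%), 154 downstream (31.6%, 27.6 to 35.8%) and 81 inside the gene (16.6%, 13.6 to 20.2%). Upstream shares were thus close in both sets, while the remaining peaks of the named set were divided between downstream and inside. The named genes of that set had a median length of 59361 bp, against 216 bp for the unnamed genes. Whether gene length accounts for the difference was not tested.

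In width these peaks were much like the rest of the list. The median was 1501 bp (interquartile range 1301 to 1801 bp, extremes 1051 and 3051 bp), against 1551 bp at nearby unnamed genes, 1551 bp at distant named genes and 1601 bp at nearby named genes. Since peak edges lie on a grid of 50 bp, these medians are 1 or 2 grid steps apart. A width of at least 2000 bp was reached by 54 peaks (12.7%, 9.8 to 16.2%), against 55 of 488 distant named peaks (11.3%, 8.8 to 14.4%) and 204 of 1181 nearby named peaks (17.3%, 15.2 to 19.5%). The largest widths in the list, up to 4551 bp, were not among the distant unnamed peaks.

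**Figure D1:**
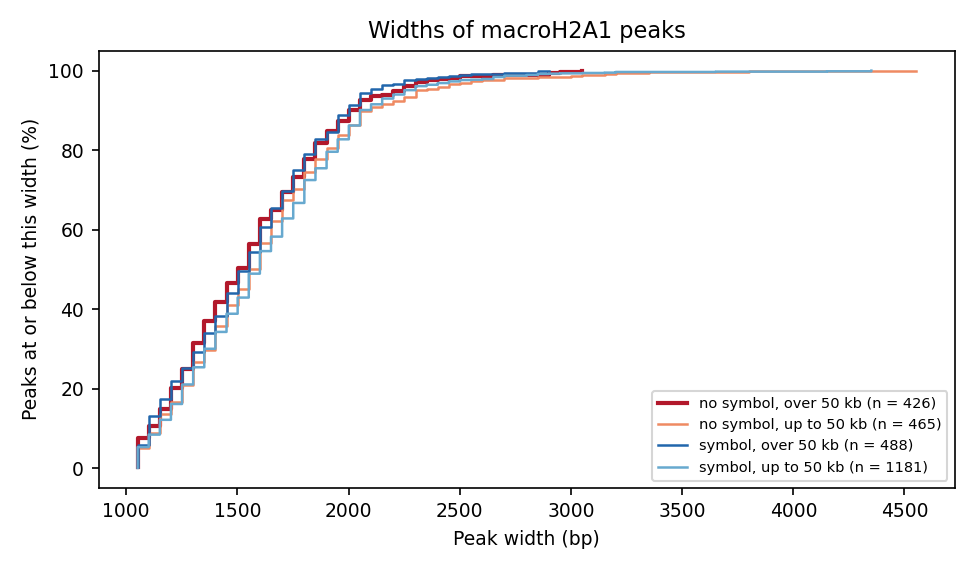
Cumulative share of peaks (%) by peak width (bp) for the 4 sets of listed macroH2A1 peaks, split by whether the assigned gene has a symbol and by the 50 kb limit. The curves lie close together, with medians of 1501 bp for the 426 distant unnamed peaks and 1551 to 1601 bp for the other sets.

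The widest of them was on chromosome 4 at 140011700 to 140014750 (3051 bp), 133 kb upstream of ENSMUSG00000052098. The closest named gene was Klhdc7a, a kelch domain gene, 488 kb away. Also on chromosome 4, a peak of 3001 bp (23497300 to 23500300) lay 51.7 kb upstream of ENSMUSG00000082876 and 2751 kb from Manea, which encodes a mannosidase. A peak of 2951 bp on chromosome 9 (12881350 to 12884300) was again in the region beyond Cntn5, 2709 kb from that gene.

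Peaks of 2901 bp were found on chromosome 5 (127232800 to 127235700, 486 kb from Tmem132c) and on chromosome 6 (140793300 to 140796200, 677 kb from Slco1c1, a thyroid hormone transporter gene). The other 5 of the 10 widest measured 2401 to 2651 bp and had Oc90, Mier3, Gm833, Grm7 and Kcnt2 as closest named genes, at 112 to 2891 kb. Wide peaks therefore occurred both close to the 50 kb limit and far beyond it, and on 7 chromosomes.

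Among the distant unnamed peaks, other features went along with distance in part. From 50 to 100 kb there were 133 peaks with a median width of 1601 bp, from 100 to 250 kb 188 with 1451 bp, from 250 to 500 kb 74 with 1551 bp and from 500 to 1000 kb 31 with 1501 bp, so width showed no steady order. The share assigned to genes of at most 200 bp was 44.4% (36.2 to 52.8%), 48.9% (41.9 to 56.0%), 55.4% (44.1 to 66.2%) and 90.3% (75.1 to 96.7%) in the same order. Of the 31 peaks beyond 500 kb, 28 were thus assigned to such a short gene. These 31 peaks belong to 23 genes, so several share a gene.

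The closest named gene was searched among the 1408 genes with a symbol that have a peak of their own in the list. A named gene without a peak cannot appear here, so the true neighbour may be closer. The median gap from peak to gene body was 905 kb (interquartile range 404 to 1931 kb), and 198 peaks (46.5%, 41.8 to 51.2%) were more than 1 Mb from every such gene. For unnamed genes with a nearer peak the median gap was 434 kb, and 134 of 465 (28.8%, 24.9 to 33.1%) were more than 1 Mb away. Within 100 kb of a named gene lay 28 of the 426 peaks (6.6%, 4.6 to 9.3%), against 96 of those 465 (20.6%, 17.2 to 24.6%). Distant peaks of named genes, compared with the closest other named gene, gave 31 of 488 within 100 kb (6.4%, 4.5 to 8.9%), 172 beyond 1 Mb (35.2%, 31.1 to 39.6%) and a median gap of 642 kb. The share within 100 kb was thus close in both sets beyond 50 kb. The 50 kb limit itself keeps annotated gene starts away from the peaks.

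**Figure D2:**
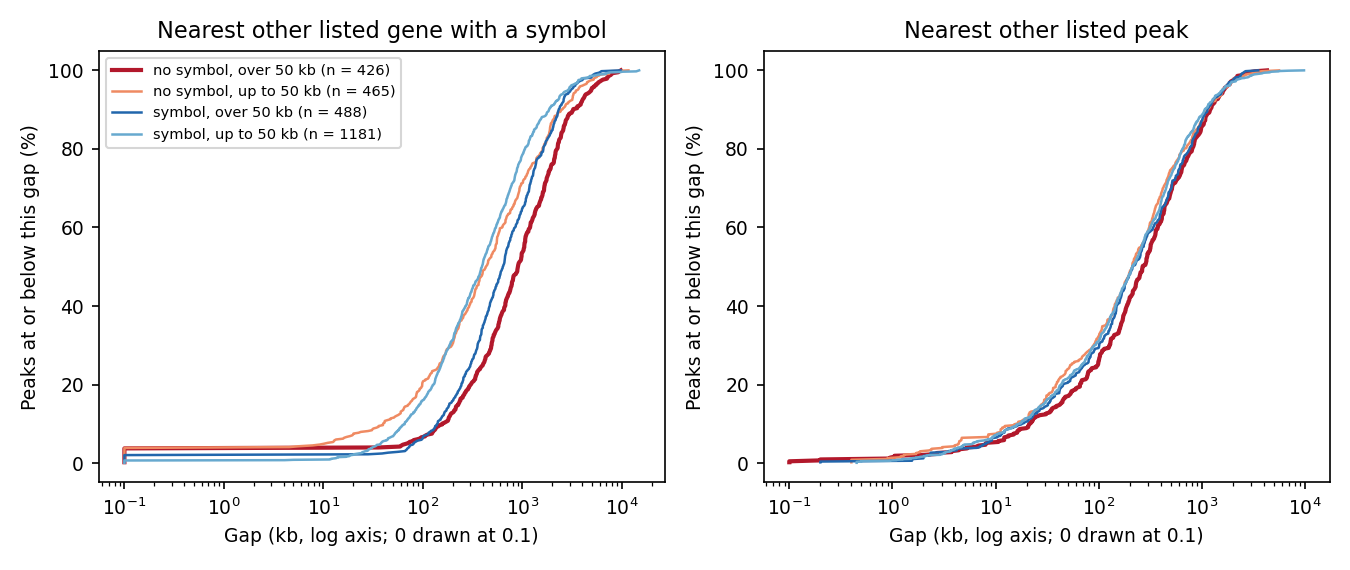
Cumulative share of peaks (%) by the gap (kb, log axis) to the closest other listed gene with a symbol, left, and to the closest other listed peak, right, for the same 4 sets. On the left the distant unnamed peaks have the largest median gap, 905 kb, while on the right the medians run from 212 to 267 kb.

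Of these peaks, 16 lay inside a named gene other than the assigned one (3.8%, 2.3 to 6.0%). The unnamed genes assigned to them were 58 to 11667 bp long. The share inside a named gene other than the assigned one was 3.9% (18 of 465, 2.5 to 6.0%) for nearby unnamed peaks. It was 2.0% (10 of 488, 1.1 to 3.7%) for distant peaks of named genes and 2.0% (52 of 2560) for all listed peaks. A peak's own assigned gene is left out of these shares. Inside their own assigned gene lay 81 of the 488 distant peaks of named genes (16.6%) and 364 of all 2560 (14.2%). The genes around the 16 peaks were Nrxn3 (a neurexin), Negr1 (a neuronal adhesion protein), Grm7 (a glutamate receptor) and Csmd1 (a large membrane protein), together with Xkr4, Hecw1, Atrnl1, Prex1, Tox, A930011G23Rik, Nav2, Fam155a, Zmat4, Disc1 and Thsd4, the last with 2 peaks. The peak in Grm7 (chromosome 6, 111436400 to 111437850) was assigned to a gene of 108 bp at a distance of 746 kb, and that in Csmd1 (chromosome 8, 16281400 to 16283250) to a gene of 110 bp at 863 kb. The search covered only named genes that are in the list, so 16 is a minimum.

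In all, 260 named genes were the closest to at least 1 of the peaks, 99 to at least 2 and 37 to at least 3. Tdrd3 was closest to 8 peaks, at gaps of 1218 to 5315 kb. Acot10 (a mitochondrial acyl-CoA thioesterase), Brunol4 (a neuronal RNA-binding protein), Cntnap5a (a contactin-associated protein) and Dsg4 (a desmosomal cadherin of hair and skin) were each closest to 6. Cntn5, Mn1 (a transcriptional coregulator) and Zfhx4 (a zinc finger homeobox factor) each had 5. The named genes with 4 were Atp2c2, Cckar, Epha5, Insm2, Prdm1, Slco6b1 and Tshz2. Most of these gaps were far above 100 kb. The smallest for Mn1 was 63.0 kb and for Cntn5 68.0 kb, whereas the 6 peaks next to Dsg4 were at 2556 to 3150 kb.

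By gene family, 15 of the 260 closest named genes (5.8%) were developmental transcription factors, against 52 of all 1408 named genes in the list (3.7%). They were Zfhx4, Prdm1 (a regulator of germ cell and lymphocyte fate), Tshz2, Foxf1a (a factor of lung and gut mesenchyme), Tbx3, Zeb2, Neurog1, Sox1, Sox2, Bcl11b, Eya1, Lhx5, Pax3, Sall1 and Sox11. Together these were closest to 34 of the 426 peaks (8.0%). That share is per peak and was not computed for other listed peaks, so it cannot be set against the 3.7% of genes. A list of neuronal adhesion, synaptic and potassium channel genes made up 20 of the 260 (7.7%), against 67 of 1408 (4.8%). Its genes were closest to 43 peaks (10.1%), again a share per peak without a matching one. Besides those named above they included Epha3 and Epha5 (ephrin receptors), Grik2 (a kainate receptor subunit), Pcdh10 and Pcdh18 (protocadherins) and Odz3 and Odz4. The potassium channel genes among them were Kcnt2, Kcnv1, Kcnc2, Kcnj16, Kcnk10 and Kcnk9.

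Signalling genes made up 4 of the 260 (1.5%, against 1.6% of all named genes), namely Wnt7b, Dkk1, Fgf18 and Vegfc. Dkk1, which encodes a secreted Wnt inhibitor, was 59.3 kb from its 1 peak, and Wnt7b was 1763 to 2475 kb from 3. Chemosensory receptors made up 1 (0.4%, against 1.8%), Taar2. Zinc finger genes with Zfp symbols made up 4 (1.5%, against 1.2%). Genes with predicted or clone names were 27 of the 260 (10.4%, against 9.6%). These shares were not tested, and all these genes were in the list because they have a peak of their own.

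Several of these peaks often shared 1 assigned gene. Of the 332 unnamed genes, 269 had 1 peak beyond 50 kb, 44 had 2, 12 had 3, 4 had 4, 1 had 5 and 2 had 6. Thus 157 peaks (36.9%, 32.4 to 41.5%) shared their gene with at least 1 other, compared with 73 of 465 nearby unnamed peaks (15.7%, 12.7 to 19.3%) and 145 of 488 distant named peaks (29.7%, 25.8 to 33.9%). A gene that stands alone in a long gap collects all the peaks around it, so sharing a gene does not mean that the peaks are close together. Over 94 gaps between successive peaks of the same gene, the median was 101 kb (interquartile range 23.2 to 199 kb), with 12 gaps of at most 10 kb and 20 above 250 kb.

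The 19 genes with at least 3 such peaks carried 69 of them. Of these genes, 14 were at most 200 bp long. Their runs spanned 7.6 to 1046 kb, with a median of 280 kb. In 9 of them the peaks lay on both sides of the gene, in 5 all were upstream and in 5 all downstream.

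**Figure D3:**
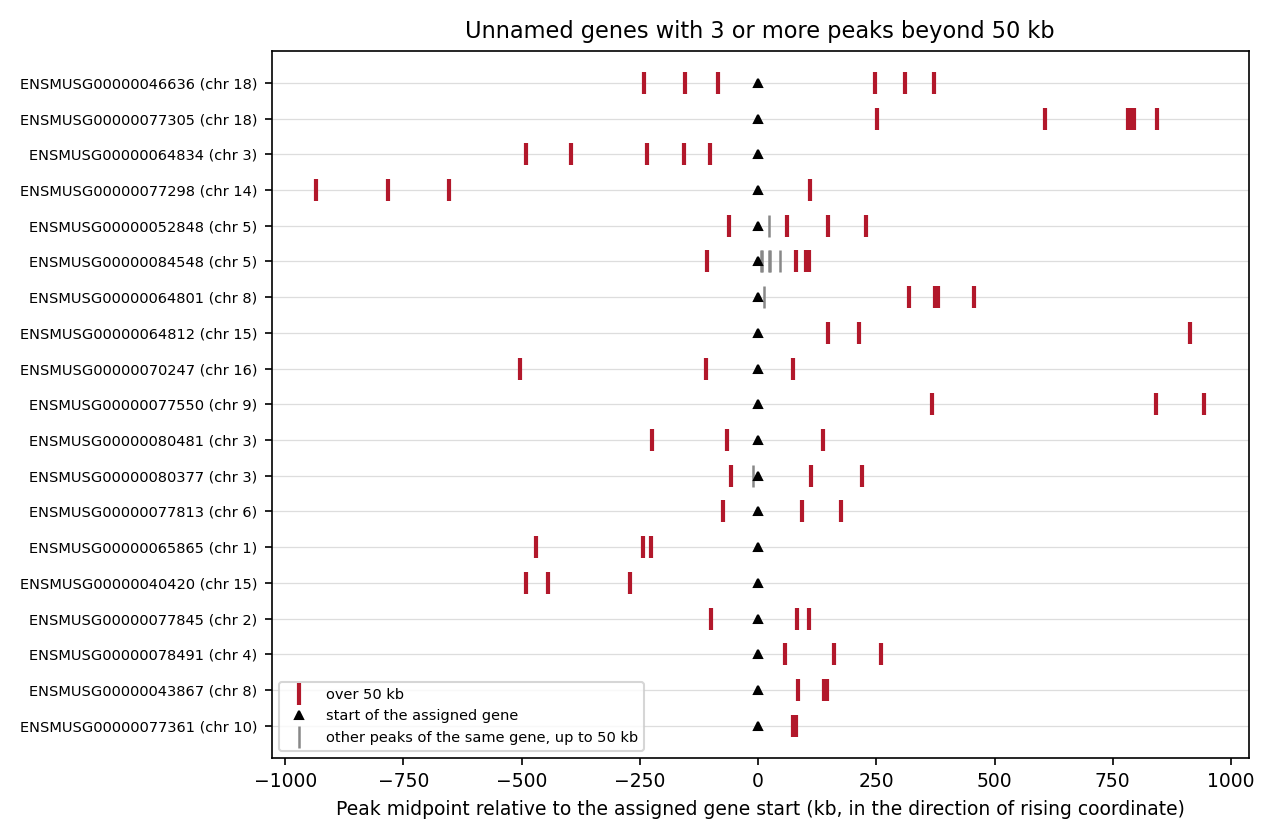
Position of peak midpoints (kb) relative to the start of the assigned gene, triangle, for the 19 unnamed genes with at least 3 peaks beyond 50 kb. Red bars are those peaks and grey bars the nearer peaks of the same gene. Some runs are tight, as in the bottom row with 3 peaks within 7.6 kb, and others spread over up to 1046 kb.

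ENSMUSG00000046636 on chromosome 18, a gene of 1116 bp (27757145 to 27758260), had 6 peaks spread over 614 kb, 3 on each side. Upstream they lay 240, 153 and 83.5 kb away and downstream 246, 309 and 371 kb. Their widths were 1051 to 1551 bp. Within each group of 3 the gaps between peaks were 59.9 to 85.8 kb, and 331 kb separated the groups. The closest named gene was Brunol4, 1603 to 2216 kb away.

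ENSMUSG00000077305, also on chromosome 18 and 130 bp long (17193171 to 17193300), had 6 peaks over 595 kb, all downstream. The first lay 250 kb away and the second 605 kb, and the other 4 fell within 62.9 kb (17975400 to 18038300), at 782 to 844 kb. No other group with steps of at most 50 kb held as many distant unnamed peaks. The pair at its lower end was separated by 1.05 kb.

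ENSMUSG00000064834 on chromosome 3, 105 bp long, had 5 upstream peaks over 392 kb (35141550 to 35533250), between Sox2 and Qrfpr. Sox2 encodes a core factor of pluripotency and neural fate, and Qrfpr a neuropeptide receptor. The first peak began 590 kb from the end of Sox2 (2101 bp wide) and the second 687 kb (2001 bp wide). The other 3, of 2251, 1101 and 1101 bp, were closer to Qrfpr, at 678, 601 and 545 kb. Along the run the first 3 peaks thus measured at least 2001 bp and each of the last 2 measured 1101 bp. The RefSeq annotation places 6 coding genes between Sox2 and Qrfpr, namely Atp11b, Dcun1d1, Mccc1, Ccdc144b, Acad9 and Zfp267.

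On chromosome 5, 4 peaks at ENSMUSG00000052848 (5593 bp long) followed Mn1 at 63.0, 184, 272 and 351 kb and measured 1851 to 2301 bp. ENSMUSG00000084548 (117 bp), between Med13l and Tbx3, had 4 peaks beyond 50 kb among its 9. One lay 107 kb upstream, and the other 3 lay 79.9, 101 and 107 kb downstream and 265 to 292 kb from Tbx3, a T-box factor of limb and embryonic stem cell biology. The other 5 peaks of this gene were within 50 kb of it and are outside the choice made here.

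Chromosome 8 had a pair of such runs. ENSMUSG00000064801 (107 bp) had 4 upstream peaks within 139 kb (121269650 to 121408750), 319 to 457 kb away and 815 to 953 kb from Atp2c2, a calcium and manganese pump gene. ENSMUSG00000043867 (1011 bp) had 3 downstream peaks within 63.8 kb (123735850 to 123799600), 125 to 187 kb from Foxf1a. The RefSeq annotation places Mthfsd, Foxc2 and Foxl1 between Foxf1a and the next named gene of the list, 1700018B08Rik. A named gene without a listed peak may thus be closer to this run than Foxf1a. Both runs have closely set pairs, 4.40 kb apart in the first and 5.30 kb in the second.

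The tightest run was on chromosome 10 at ENSMUSG00000077361 (131 bp), with 3 peaks of 1601, 2251 and 1501 bp within 7.6 kb (46452250 to 46459850). The gaps between them were 0.20 and 2.05 kb. The closest named gene, Prdm1, was 2274 kb away. The longest run was that of ENSMUSG00000077298 on chromosome 14 (130 bp), with 4 peaks over 1046 kb, 3 downstream at 652, 783 and 934 kb and 1 upstream at 109 kb.

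Chromosome 15 held neighbouring runs between Acot10 and Gm5468. ENSMUSG00000064812 (107 bp) had 3 downstream peaks, at 147, 214 and 912 kb, and the long gene ENSMUSG00000040420 had 3 upstream peaks at 490, 444 and 270 kb. All 6 had Acot10 as the closest named gene, at 594 to 2098 kb. Further runs of 3 peaks lay next to Zfhx4 on chromosome 3 (406 to 685 kb from it), to Tshz2 on chromosome 2 (206 to 413 kb), to Cntnap5a on chromosome 1 (484 to 727 kb), to Cntn5 on chromosome 9 (1266 to 1841 kb), to Jam2 on chromosome 16 (2156 to 2734 kb) and to Slc45a1 on chromosome 4 (493 to 697 kb). The remaining runs were between Frmd4b and Prok2 on chromosome 6 and next to 2810416G20Rik on chromosome 3.

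Most of the peaks stood alone, also within these runs, where 23 of the 69 (33.3%, 23.4 to 45.1%) had another listed peak within 50 kb. Another listed peak lay within 50 kb of 72 of the 426 (16.9%, 13.6 to 20.8%), against 111 of 465 nearby unnamed peaks (23.9%, 20.2 to 27.9%) and 99 of 488 distant named peaks (20.3%, 17.0 to 24.1%). The median gap to the closest other peak was 267 kb, compared with 212 and 214 kb. Where such a neighbour existed, it was itself a distant unnamed peak in 56 of the 72 cases (77.8%). Distant unnamed peaks are 16.6% of the list, but neighbours tend to share an assigned gene and hence a set. Groups with steps of at most 50 kb numbered 42, and 26 of them held at least 2 of these peaks. A close pair of 1801 bp peaks lay on chromosome 8 (12201300 to 12203100 and 12205800 to 12207600), 189 and 193 kb from Sox1, a neural progenitor factor.

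To describe gene-poor stretches, the intervals between successive named genes of the list were taken, with lengths from the deposited mm9 coordinates. The coding genes inside them were counted from the gene order in RefSeq (assembly GRCm38.p6). Of 1383 stretches, 213 held at least 1 distant unnamed peak, and 398 of the 426 peaks fell in them. A count of coding genes could be made for 206. Not all of these were gene-poor. Between Gprc2a-rs5 and Myh14 on chromosome 7, with 1 such peak, there were 28.4 coding genes per Mb. Between Bcmo1 and Atp2c2 on chromosome 8, with 5 such peaks, there were 7.4 per Mb. Of the stretches with a count, the 20 with at least 4 of these peaks had a median length of 5.51 Mb and 1.95 coding genes per Mb (276 in 141 Mb). A further 2 stretches with at least 4 of these peaks had no count, those from Acot10 to Gm5468 (7 peaks) and from 2810416G20Rik to Tnfsf10 (4 peaks). The 186 with 1 to 3 peaks had 5.05 per Mb, and the 1121 without any had 10.5 per Mb. Among stretches of at least 1 Mb the densities were 4.52 per Mb over 174 with and 9.82 per Mb over 411 without such a peak. Peaks that are more than 50 kb from gene starts are bound to fall more often where genes are sparse, so these densities describe the choice and were not tested.

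**Figure D4:**
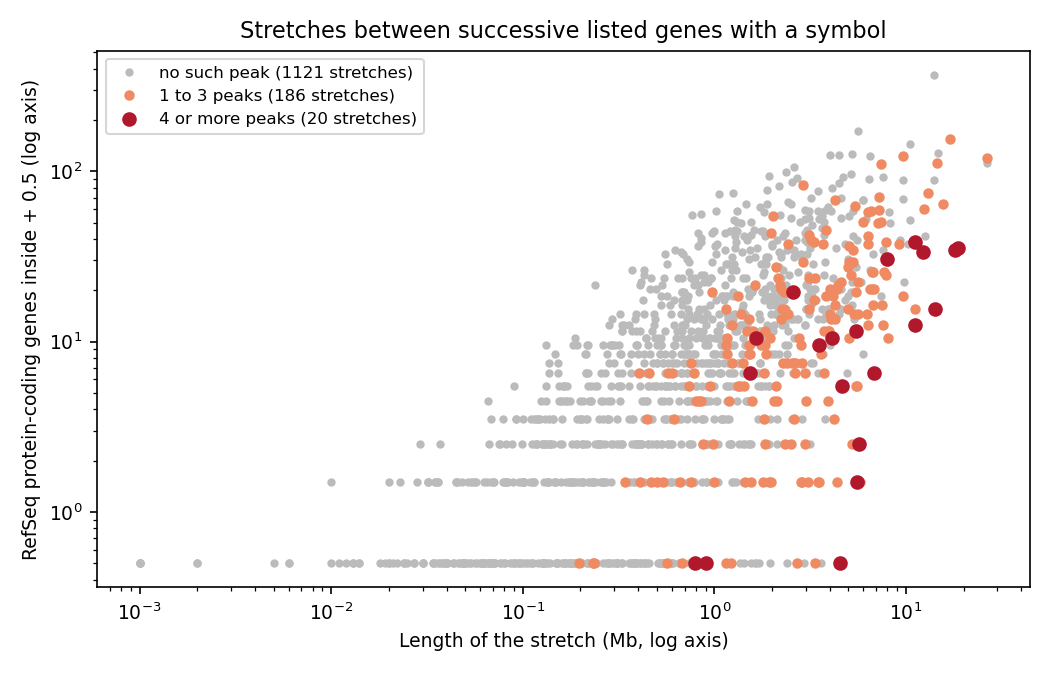
Number of RefSeq protein-coding genes (plus 0.5, log axis) against length (Mb, log axis) for the stretches between successive named genes of the list that have a gene count. The 20 of them with at least 4 distant unnamed peaks, dark red, lie mostly at the lower right, with 1.95 coding genes per Mb against 10.5 in the 1121 stretches without such a peak, grey.

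The stretch with most of these peaks was on chromosome 14 between Tdrd3 and Lmo7 (87945308 to 102129173, 14.2 Mb). It held 9 distant unnamed peaks at 5 unnamed genes and no other listed peak. RefSeq places 15 coding genes there, among them Pcdh9 and Pcdh20 (protocadherins), Klhl1 (a neuronal actin-binding protein), Dach1 (a developmental regulator) and the Krüppel-like factor genes Klf5 and Klf12. A stretch of 11.1 Mb on chromosome 18, between Ccny and Dsg4, also had 9, among them the 6 of ENSMUSG00000077305, and contained 38 coding genes. On chromosome 1, 7 peaks at 6 unnamed genes lay between Slco6b1 and Cntnap5a (18.7 Mb, 35 coding genes).

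On chromosome 5, 7 peaks lay between Cckar, a cholecystokinin receptor gene, and Klf3 (11.1 Mb, 12 coding genes, Pcdh7 and Stim2 among them). A further 6 lay between Spink2 and Epha5 (6.85 Mb), where the coding genes were Rest, Noa1, Polr2b, Igfbp7, Adgrl3 and Tecrl. On chromosome 10, 7 lay between Prdm1 and Grik2 (4.64 Mb), where they were Prep, Popdc3, Bves, Lin28b and Hace1. On chromosome 15, 7 lay between Acot10 and Gm5468 (4.75 Mb), for which no gene count could be made.

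The lowest densities came with few or no coding genes. Between Kcnv1 and Trps1 on chromosome 15 (5.55 Mb) there were 5 peaks, and RefSeq has 1 coding gene, Csmd3. Between Prss7 and Jam2 on chromosome 16 (5.68 Mb) there were 5 peaks and 2 coding genes, Ncam2 (a neural cell adhesion molecule) and Mrpl39. No coding gene separated the named genes in 13 of the 206 counted stretches with these peaks, which held 26 of them. The same held for 189 of the 1121 stretches without such a peak, whose median length was 0.67 Mb. Among stretches of at least 1 Mb it held for 5 of 174 with and 12 of 411 without such a peak. The longest of the 13 was that between Brunol4 and Pik3c3 on chromosome 18 (25912659 to 30432523, 4.52 Mb). It contained all 6 peaks of ENSMUSG00000046636 and 4 peaks assigned to named genes. Between Nr2f1, an orphan nuclear receptor gene, and Arrdc3 on chromosome 13 (2.69 Mb) there were 3. Shorter ones lay between Mn1 and Cryba4 (0.79 Mb, 4 peaks) and between Med13l and Tbx3 (0.91 Mb, 4 peaks) on chromosome 5.

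All 20 chromosomes in the list carried distant unnamed peaks. Chromosome 5 had the most, 40, but also the most peaks of any kind, so its share of 16.0% (12.0 to 21.1%) was close to the 16.6% of the whole list. The highest shares were on chromosome 18 (19 of 81 peaks, 23.5%, 15.6 to 33.8%), chromosome 3 (34 of 152, 22.4%, 16.5 to 29.6%) and chromosome 13 (28 of 129, 21.7%, 15.5 to 29.6%). The lowest were on chromosome 17 (7 of 86, 8.1%, 4.0 to 15.9%), chromosome 7 (11 of 108, 10.2%, 5.8 to 17.3%) and chromosome 19 (7 of 67, 10.4%, 5.2 to 20.0%). The interval of chromosome 17 was the only one of the 20 that left out 16.6%.

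Chromosome X had 3 of these peaks among 26, the smallest number. On chromosome 18 the 19 peaks belonged to 8 genes, and 12 of them to the runs at ENSMUSG00000046636 and ENSMUSG00000077305, so this share rests largely on a pair of unnamed genes. Median distances by chromosome went from 62.5 kb on chromosome 19 to 246 kb on chromosome 18. Median widths went from 1101 bp on chromosome X, over 3 peaks, to 1701 bp on chromosome 19.

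Across chromosomes the share was lower where RefSeq has more protein-coding genes per Mb. Over the 20 chromosomes Pearson's r was -0.69 and Spearman's rho -0.69, and without chromosomes 7 and 11, the farthest from the median density, r was -0.71. Over the 19 autosomes the values were -0.82 and -0.87. Chromosome X stands off this relation, with few coding genes (5.66 per Mb) and a share of 11.5% (4.0 to 29.0%) over 26 peaks. For distant named peaks r was -0.31 over all chromosomes, which include the X chromosome with no such peak, and -0.61 over autosomes. For nearby unnamed peaks it was 0.16 and 0.26. These are descriptions across chromosomes, which share 1 library and 1 annotation, and gene density bears on the distance to a gene start by construction.

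**Figure D5:**
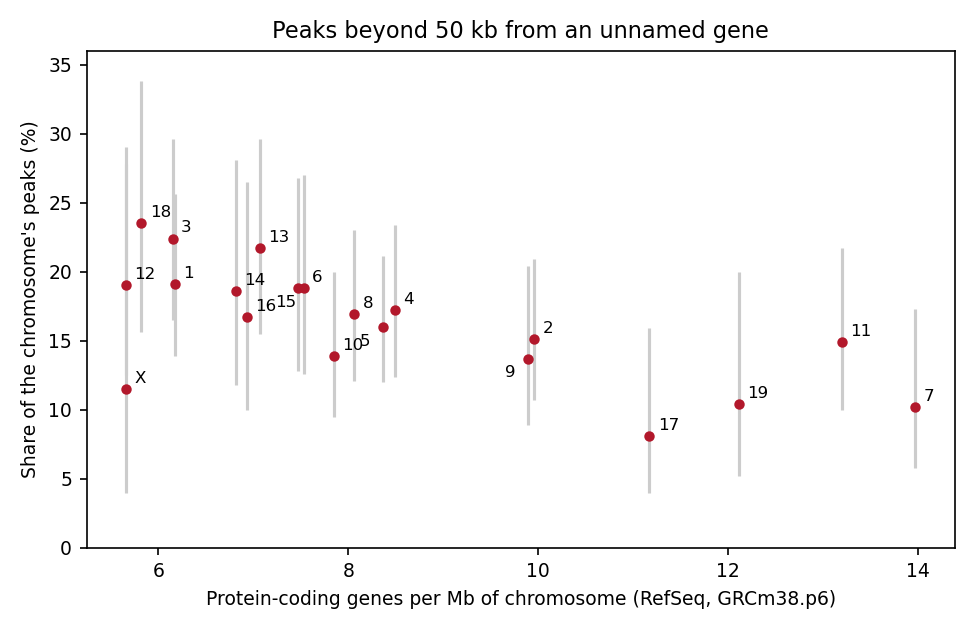
Share (%) of each chromosome's listed peaks that are distant unnamed peaks, with 95% Wilson intervals as bars, against RefSeq protein-coding genes per Mb (assembly GRCm38.p6). Shares run from 8.1% on chromosome 17 to 23.5% on chromosome 18, and lower shares lie mostly at the gene-rich chromosomes on the right, with chromosome X at the lower left as an exception.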

How the data were processed

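The deposited table lists macroH2A1 peaks, 1 per row, with position, width, assigned Ensembl gene, distances in bp and symbol. According to the submitters' processing notes, Bowtie was the aligner and NCBIM37 (mm9) the build. Peaks are named after CCAT, and which settings that caller had is not stated in these sources. The deposited widths and shortest distances followed from the coordinates in all 2560 rows. Each header name was read 1 field to the right, because rows begin with an unnamed row number.

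Peaks were grouped by symbol (NA or not) and by a shortest distance above 50000 bp. Gaps to the closest named gene and peak were computed with Python 3.11.15, pandas 2.3.3 and scipy 1.17.1 after checks on simulated data. Where a gene has several symbols, the first is printed. Of 1408 named genes, 1388 were matched by symbol or synonym to the RefSeq table on the same chromosome. RefSeq gave gene order and counts only, and a stretch was counted where its lengths in both builds differed by at most 200 kb or 50%, a limit set after the data were seen. The unnamed genes could not be matched to a name. No peak sequence is printed, because no mm9 genome was used here. Genes described in the text were the unnamed genes with at least 3 peaks, the 10 farthest and 10 widest peaks, and the closest named genes. Further stretches and the pair near Sox1 were chosen after their values were seen. The set of peaks and the gene lists were chosen with earlier results of these data known.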

Additional observations from a re-analysis of the deposited data

How the results depend on the processing

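No paired analysis was possible because there is 1 macroH2A1 library, and no replicate could be left out. Beyond 100 kb, 293 peaks remained, with a median distance of 210 kb, and 13.0% had another peak within 50 kb. Among peaks wider than the list median (186 peaks, median width 1851 bp), 12.9% lay on chromosome 5 and 24.2% shared their gene, against 9.4% and 36.9%. Fewer peaks leave fewer to share a gene. Another peak lay within 25 kb of 11.7% and within 100 kb of 25.8%, and a named gene within 50 kb of 4.0% and within 200 kb of 12.7%. The gap to the gene start, leaving out chromosome 5 and 1 peak per gene (added after the data were seen) moved no value outside its interval. Taking distinct regions kept the same 426 peaks, because none of them was listed more than once, so that setting was hardly a check. The unknown depth and missing scores prevented any stricter list by enrichment.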
